A study of Mus musculus with 27 samples.

Results

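The miRNA repertoire of sham-operated mouse cortex was described from 3 small RNA libraries, sham replicates 1, 2 and 3, out of 27 libraries in the series. The members were taken by label alone, as the columns of the count table that carry the sham description, and no measured value was used to choose them. All mice were wild-type C57BL6, a common inbred laboratory strain, aged 7 to 8 weeks. Sham mice were anesthetized and had the neck arteries exposed, but no filament was inserted. The other 24 libraries came from mice whose right middle cerebral artery was blocked by a suture for 35 min (middle cerebral artery occlusion, MCAO, a stroke model). Cortex was taken 3, 6, 12 or 24 h later, either ipsilateral, on the side of the occlusion, or contralateral, on the other side, with 3 libraries for each hemisphere and time. The hemisphere of the sham cortex, and whether tissue of several mice was pooled, are not stated in the labels. The labels tie sets of replicates to separate days of surgery. They give no dates, so that the same number in different groups means the same day is a reading of that text.

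miRNAs are short RNAs cut from hairpin precursors. Each hairpin has a 5p and a 3p arm, and usually one of them, the guide, is loaded into an Argonaute protein while the other, the passenger, is lost. The guide finds its target mRNAs mainly through its seed, the bases that follow its first base, so miRNAs that share a seed form a family with overlapping targets. Cortex is known for a repertoire rich in the neuronal miR-124, miR-128 and miR-9 and in the let-7 family.

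The mature sequences below are those of the miRNAs that led the 3 sham libraries, written 5′ to 3′ with the seed, bases 2 to 8, in capitals. They were taken from RefSeq (GRCm38.p6), which gave a sequence for 1587 of the 1842 entries of the table.
miR-181a-5p: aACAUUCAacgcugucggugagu
miR-128-3p: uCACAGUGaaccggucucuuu
miR-127-3p: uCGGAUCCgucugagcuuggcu
miR-26a-5p: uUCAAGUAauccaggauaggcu
let-7f-5p: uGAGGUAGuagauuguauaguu
miR-22-3p: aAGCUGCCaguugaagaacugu
miR-434-3p: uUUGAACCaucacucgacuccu
miR-9-5p: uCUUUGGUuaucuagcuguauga
miR-30a-5p: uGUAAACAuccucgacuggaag

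Several of these are made from more than one gene or lie inside other genes, in the GENCODE vM21 annotation of the same build. miR-128-3p comes from an intron of R3hdm1 (mature sequence at chr1:128202404-128202424, plus strand) and from an intron of Arpp21 (chr9:112118644-112118664, minus strand). miR-127-3p (chr12:109592888-109592909) and miR-434-3p (chr12:109594565-109594586) lie on the plus strand, opposite an exon of Rtl1, in the imprinted Dlk1-Dio3 region. miR-22-3p lies in an exon of its host RNA Mir22hg (chr11:75463772-75463793, plus strand).

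The 3 sham libraries held 1125050, 1358956 and 954337 counts, within the range of 856591 to 1903416 over all 27. Levels are given as CPM (counts scaled to the library total), so each value is a share of the counted miRNA reads and not an amount of RNA per cell. In bulk tissue, fewer cells of a type and less of a miRNA per cell cannot be told apart. An entry was at 0 in only 15, 18 and 26 of the 1842 cases, and the median entry stood at 12.4, 8.09 and 11.5 CPM. Values near 10 CPM are therefore the level of the middle of the table and say little about any single miRNA.

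Sham replicate 2 stood apart before any comparison was made. In it miR-182-5p, a miRNA of sensory and epithelial cells, stood at 18878 CPM (rank 11), against 157 CPM in replicate 1 and 91.2 CPM (rank 268) in replicate 3. The calls against contralateral and ipsilateral cortex are therefore given with and without this library. Mean levels, arm ratios and family shares use all 3 sham libraries. Entries with few counts in a pair were left out, which kept 1530 to 1560 entries. Over these, pairs of sham libraries correlated at r = 0.94 to 0.96 on log2 CPM (Spearman 0.83 to 0.87). This is a description across entries that are not independent replicates. No pair was a repeat of 1 library: the chi-square per degree of freedom between pairs was 36.3 to 79.4.

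The sham repertoire was led by miR-181a-5p, a miRNA shared by neurons and immune cells, at 93131 ± 17892 CPM (SD, n = 3). It stood at 112594, 89400 and 77398 CPM in replicates 1, 2 and 3. Next was miR-128-3p, a neuron-enriched miRNA, at 66499, 88198 and 109866 CPM, a mean of 88188 ± 21683 (SD, n = 3). The order of these leaders was not fixed: miR-181a-5p was first in replicate 1, miR-127-3p in replicate 2 and miR-128-3p in replicate 3, and the means of the first 2 differ by less than their SD.

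miR-127-3p, an imprinted miRNA expressed from the maternal chromosome, stood at 52448, 90075 and 69817 CPM. miR-26a-5p, widely expressed, stood at 53914, 81061 and 74246 CPM. let-7f-5p, the leading let-7 member, stood at 72861, 61990 and 53209 CPM. These 3 and miR-22-3p (54803, 62387 and 67382 CPM) overlapped in range, so their order does not exceed the spread between the libraries.

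A lower step followed. miR-434-3p stood at 64424, 22895 and 33053 CPM, with replicate 1 well above the others. miR-9-5p, a neural miRNA, was much steadier at 29266, 33593 and 31972 CPM (31610 ± 2186, SD, n = 3). miR-30a-5p stood at 26533, 24615 and 22864 CPM. miR-143-3p, a miRNA of vascular smooth muscle, stood at 31683, 14026 and 14671 CPM, again high in replicate 1.

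The remaining members of the leading 20 had means from 19691 CPM (miR-27b-3p) down to 9520 CPM (miR-191-5p). Between them were miR-30d-5p, let-7c-5p, miR-125a-5p, let-7a-5p, miR-92b-3p, miR-30c-5p, miR-29a-3p and miR-6389. Of these, miR-125a-5p (13977 ± 759 CPM) and miR-92b-3p (11997 ± 641 CPM) varied little, while miR-6389 stood at 5042, 10878 and 17142 CPM and changed rank from 35 to 20 to 12. miR-124-3p, often named as the most abundant brain miRNA, was outside the leading 20, at 3761, 5115 and 5692 CPM.

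**Figure D1:**
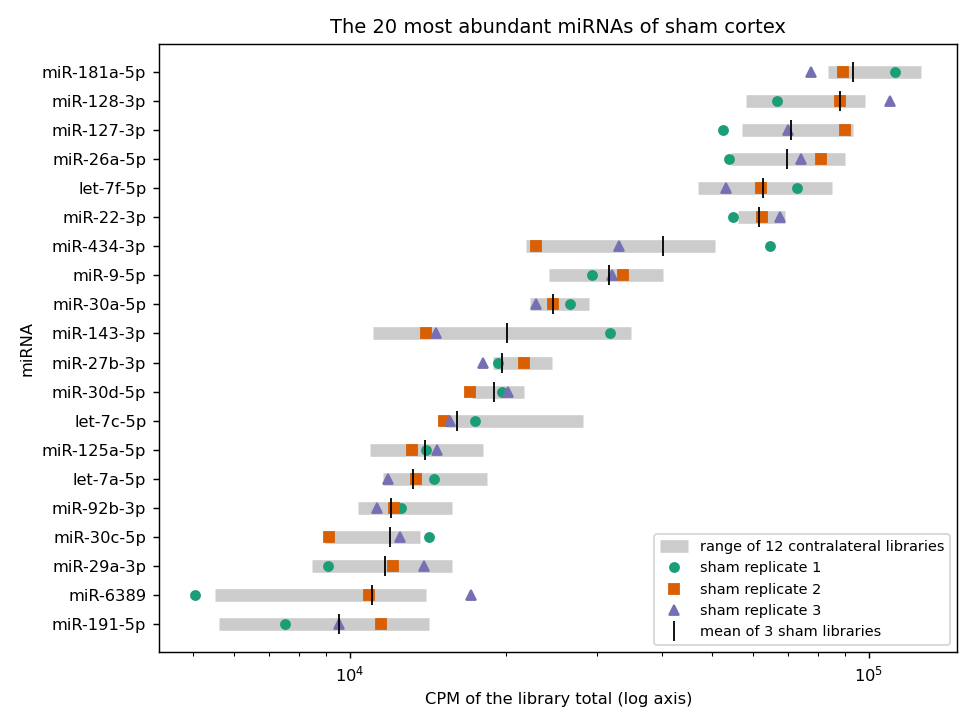
CPM of the library total (log axis) of the 20 most abundant miRNAs of sham cortex, with 1 point per sham library, a bar at the mean, and grey bars for the range of the 12 contralateral libraries. miR-434-3p, miR-143-3p and miR-6389 have the widest sham spread, and miR-125a-5p and miR-92b-3p are among the tightest.

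Of the leading 10 entries of each library, 9 were shared by all 3 libraries, and of the leading 20, 17 were. Counts were concentrated in few entries. The leading 10 of each library held 56.5%, 57.6% and 56.0% of its counts (56.7% ± 0.81, SD, n = 3), and 8, 7 and 8 entries held more than 50%. To reach 90% took 72, 61 and 69 entries. Between 74 and 78 entries stood at 1000 CPM or more, 248 to 272 at 100 CPM or more, and 814 to 1031 at 10 CPM or more.

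**Figure D2:**
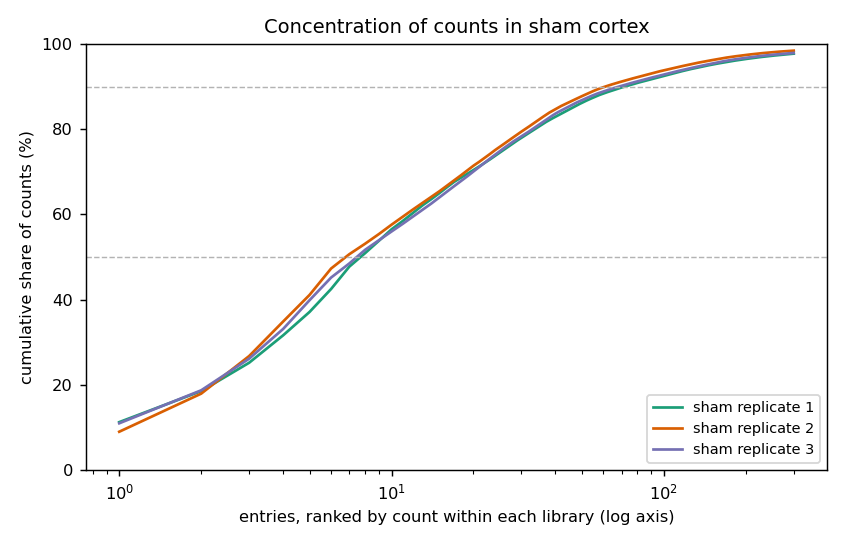
Cumulative share of the counts (%) against the number of entries taken in order of count within each sham library (log axis), with dashed lines at 50% and 90%. The 3 curves run close together and pass 50% at 7 or 8 entries and 90% at 61 to 72.

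Most sham miRNAs stood at similar levels in the 3 libraries. Over the 259 entries with a mean of at least 100 CPM the median SD of log2 CPM was 0.27, and the highest library was a median of 1.42 times the lowest. That ratio was above 2 for 46 entries and above 4 for 18. The steadiest were miR-136-3p of the Dlk1-Dio3 region at 5464, 5476 and 5345 CPM, miR-23a-3p at 356, 350 and 365 CPM, let-7b-5p at 3195, 3026 and 3135 CPM, miR-421-3p at 479, 500 and 505 CPM, and miR-361-3p at 184, 174 and 182.3 CPM.

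The most variable entries were of 2 kinds. The first were high in replicate 2 alone. They were miR-182-5p, miR-183-5p of the same gene cluster, and miR-141-3p, miR-200a-3p, miR-200b-3p and miR-429-3p of the miR-200 family, which marks epithelial cells. These 6 were also every entry of at least 100 CPM in replicate 2 that stood there over 4 times above both other libraries. The second kind was high in replicate 1 or low in replicate 2. miR-351-3p stood at 2215, 135 and 357 CPM, miR-10b-5p, a miRNA encoded in the Hoxd cluster, at 897, 101 and 132.03 CPM, miR-6979-3p at 258, 28.7 and 180 CPM, and miR-7087-3p at 230, 26.5 and 130 CPM.

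The miRNAs high in replicate 2 are shown with their 2 lower family members because several share a seed although their genes lie apart: miR-182, miR-183 and miR-96 on chromosome 6, miR-141 elsewhere on chromosome 6, and miR-429 on chromosome 4.
miR-182-5p: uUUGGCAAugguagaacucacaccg
miR-183-5p: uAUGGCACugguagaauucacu
miR-96-5p: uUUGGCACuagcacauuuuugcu
miR-141-3p: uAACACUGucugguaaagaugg
miR-200a-3p: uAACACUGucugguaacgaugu
miR-200b-3p: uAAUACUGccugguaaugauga
miR-200c-3p: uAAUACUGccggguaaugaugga
miR-429-3p: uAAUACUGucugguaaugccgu

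miR-141-3p stood at 9.78, 904 and 18.9 CPM in replicates 1, 2 and 3, and miR-200a-3p, with the same seed, at 7.11, 493.8 and 21.0 CPM. miR-429-3p stood at 63.1, 2429 and 85.9 CPM and miR-200b-3p at 73.8, 564 and 48.2 CPM. miR-183-5p stood at 214, 1762 and 193 CPM, miR-96-5p at 4.44, 54.5 and 8.38 CPM and miR-200c-3p at 3.56, 50.8 and 6.29 CPM. All 8 were highest in replicate 2, and far above both other libraries.

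The opposite arms of the same hairpins did not show such an excess. miR-182-3p had 8, 9 and 7 counts in the 3 libraries while miR-182-5p had 177, 25654 and 87. miR-429-5p had 7, 7 and 3 counts, and miR-200a-5p stood at 45.3, 43.4 and 27.2 CPM. Of the arms opposite the 8 members, miR-200b-5p was raised the most in replicate 2, to 20 counts against 5 and 7.

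The summed level of these 8 miRNAs was 533, 25137 and 473 CPM in sham and 410.6 to 724 CPM in the 12 contralateral libraries. Among the ipsilateral libraries it had a median of 639 CPM, and 1 library, replicate 3 at 6 h, reached 26307 CPM. In that library miR-182-5p stood at 20875 CPM, and the other 25 libraries of the series lay between 67.3 and 492 CPM. What the 2 libraries share was not tested.

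**Figure D3:**
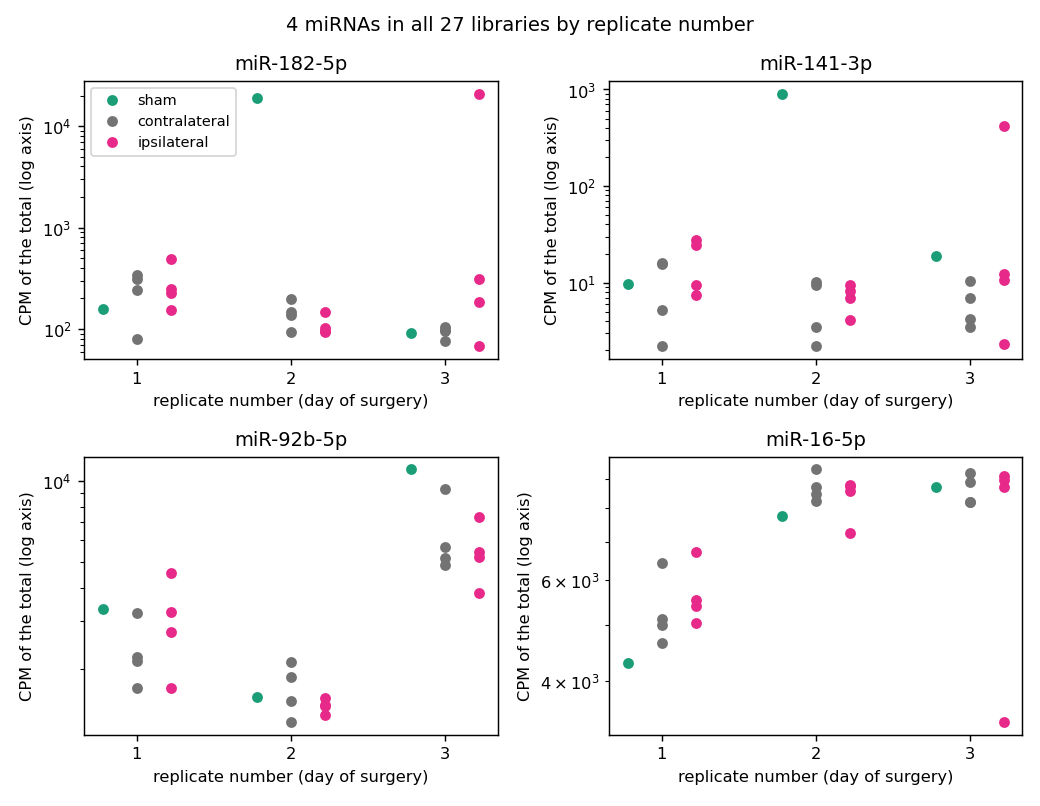
CPM of the library total (log axis) of miR-182-5p, miR-141-3p, miR-92b-5p and miR-16-5p in all 27 libraries against replicate number, with sham, contralateral and ipsilateral libraries side by side. miR-182-5p and miR-141-3p are high in sham replicate 2 and in 1 ipsilateral library of number 3. By median, miR-92b-5p is highest in number 3 and miR-16-5p lowest in number 1, but the ranges of the numbers overlap. The lowest miR-16-5p value, 3385 CPM, is in ipsilateral replicate 3 at 6 h.

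Part of the spread between sham libraries ran along the replicate number in the other groups too. After each group's mean was subtracted, libraries of the same number in different groups had a mean correlation of 0.23 (108 pairs), with sham replicate 3 and the ipsilateral libraries of its number at 0.07. The labels do not say whether contralateral and ipsilateral libraries of 1 number and time come from 1 mouse, so these libraries may not be separate animals. miR-92b-5p stood at 3336, 1572 and 11029 CPM in sham replicates 1, 2 and 3. Its medians over the 8 contralateral and ipsilateral libraries of each number were 2469, 1489 and 5324 CPM, in the same order.

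miR-16-5p, a ubiquitous miRNA of the miR-15 family, was low in sham replicate 1 at 4295 CPM, against 7749 and 8717 CPM. In the other groups its median was 5271 CPM in number 1 against 8655 and 8813 CPM in numbers 2 and 3. miR-351-3p, high in sham replicate 1, had a median of 1486 CPM in the other libraries of number 1 against 396 and 452 CPM. miR-434-3p had a median of 45609 CPM in number 1 against 28516 and 28738 CPM.

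Other sham deviations did not run that way. miR-143-3p was high in sham replicate 1, but its medians in the other groups were 15406, 15648 and 15431 CPM by number. miR-10b-5p stood at 897 CPM in sham replicate 1 and at a median of 157 CPM in the 8 other libraries of number 1, whose highest was 516 CPM. miR-182-5p had a median of 119 CPM and a highest value of 197 CPM in the 8 other libraries of number 2.

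Markers of the cell types that cortex dissections can hold were set beside these values. In the lists given here, some markers had no entry of their name, so the sums leave them out. These were miR-219a-5p (oligodendrocyte), miR-126a-5p (vascular), miR-486a-5p and miR-486b-5p (erythrocyte) and miR-199a-3p (meninges and fibroblast). All 11 neuronal miRNAs had a mean above 10 CPM, a level that 814 to 1031 of the 1842 entries reached in each sham library. Their sum was 116529, 143806 and 168092 CPM, led by miR-128-3p and miR-9-5p. Of the neuronal list, miR-132-3p, induced by neuronal activity, stood at 6868, 6811 and 8116 CPM, miR-138-5p at 6001, 4035 and 5360 CPM, miR-218-5p at 1049, 1446 and 1551 CPM, and miR-153-3p at 727, 1917 and 2325 CPM. The neuronal sum was lowest in replicate 1.

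The oligodendrocyte list summed to 1705, 2250 and 2086 CPM, mainly miR-338-3p at 1196, 1849 and 1624 CPM, while miR-219a-2-3p ran the other way at 429, 305 and 362.6 CPM. The vascular list summed to 33258, 15666 and 16761 CPM, almost all of it miR-143-3p, while the endothelial miR-126a-3p was level at 1475, 1575 and 2025 CPM. The leukocyte and microglia list summed to 2222, 1499 and 1826 CPM. Its members did not move together: miR-150-5p, a lymphocyte miRNA, was highest in replicate 1 (1729, 771 and 992 CPM), while miR-142a-5p (278, 362 and 406 CPM) and miR-146a-5p (188, 351 and 400 CPM) were lowest there. The myeloid miR-223-3p stood at 14.2, 8.09 and 11.5 CPM, near the median entry.

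Lists for blood and for tissues around or beyond the cortex differed in level. Erythrocyte miRNAs summed to 188, 191 and 241 CPM, with miR-451a at 111, 102 and 162 CPM. The hepatic miR-122-5p stood at 7.11, 5.15 and 3.14 CPM, below the median entry. Meningeal and fibroblast miRNAs summed to 180, 36.8 and 111 CPM, and the choroid plexus list to 3325, 2822 and 2219 CPM, nearly all miR-204-5p, which other cells also make. The Hox-linked list summed to 1018, 239 and 220 CPM, with miR-10b-5p as the source of the high first value. The part of such cells in the sham spread was not tested.

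Arm use was read from the 5p and 3p entries of 1 hairpin, a ratio that needs no scaling between libraries. Of 729 hairpins with both arms in the table, 321 had at least 30 counts over both arms in every sham library and 408 did not. By mean log2 ratio, 155 (48.3%) were led by the 5p arm and 166 by the 3p arm. The leading arm was the same in all 3 libraries for 289 of them, and for 250 the 95% Wilson interval of the 5p share lay on one side of 50% in every library. The 5p arm held at least 90% in 72 hairpins and the 3p arm at least 90% in 73.

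The bias was steeper in abundant hairpins. In the 78 hairpins of at least 1000 CPM the median absolute log2 ratio was 6.36, against 1.65 in the 117 below 100 CPM, with 2.93 over all 321. The level of the minor arm bears on the ratio: in 78 of the 321 hairpins it was at or under the median entry in all 3 libraries, and its part in this trend was not tested. Below 100 CPM, 7 hairpins still had at least 90% in the 5p arm and 6 in the 3p arm. Among the 78 abundant hairpins 42 were led by the 5p arm and 36 by the 3p arm, and all but miR-351 and miR-335 kept their leading arm in the 3 libraries. The Wilson interval of miR-335 spanned an even split in each of these libraries.

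Most leaders of the repertoire were close to single-armed, but miR-434, given below, was not. The 5p arm of miR-181a took 99.02%, 99.10% and 99.05% of the counts of both arms. The 5p arm of miR-128 took 0.92%, 0.45% and 0.33%. For miR-26a the 5p arm exceeded the 3p arm by 11.58 ± 0.50 on the log2 scale, and for let-7a by 10.93 ± 0.71 (SD, n = 3). The let-7a ratio rests on only 13, 9 and 3 counts in its 3p arm, at or under the median entry. On the other side stood miR-22 at -10.61 ± 0.16 and miR-143 at -10.22 ± 0.52. These were the steepest 5p and 3p biases among hairpins of at least 1000 CPM.

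Other hairpins kept both arms at a high level. The sequences of 4 of them are given because both arms were abundant and the 2 arms of each carry different seeds, the part that finds targets.
miR-423-5p: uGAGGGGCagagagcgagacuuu
miR-423-3p: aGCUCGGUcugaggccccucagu
miR-335-5p: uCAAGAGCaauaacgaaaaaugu
miR-335-3p: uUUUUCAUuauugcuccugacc
miR-92b-5p: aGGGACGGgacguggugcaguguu
miR-92b-3p: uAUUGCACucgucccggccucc
miR-434-5p: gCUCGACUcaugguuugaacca
miR-434-3p: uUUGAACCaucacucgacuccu

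For miR-423 the 5p arm took 49.5%, 47.5% and 46.3%, and for miR-335, encoded in an intron of the imprinted gene Mest, 49.0%, 47.6% and 51.9%. miR-151 was also near balance, with 37.5%, 39.0% and 46.2% in the 5p arm and 3p levels of 4879, 5941 and 4601 CPM. miR-132 had a steady 12.3%, 11.6% and 12.7% in its 5p arm, and let-7d 80.3%, 77.8% and 77.8%.

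The balance of miR-92b was not stable between sham libraries, and its 5p level ran along the replicate number, as given above. Its 5p arm took 21.0%, 11.4% and 49.4%, while the 3p arm stayed at 12539, 12162 and 11290 CPM, so the change lay in the 5p arm. In miR-434 the reverse held: the 5p arm was at 2453, 2566 and 3009 CPM, and the 3p arm carried the spread. miR-351 went from 14.9% to 71.9% and 52.5% in its 5p arm through the 3p values given above. miR-200a went from 86.4% to 8.08% and 56.5%, with the 3p excess of replicate 2. Of hairpins of at least 100 CPM, 12 did not have the same leading arm in all 3 sham libraries. Among them were miR-335, miR-351, miR-431, miR-666 and miR-200a. The 12 include miR-877, whose arms were tied in replicate 1 and led by the 3p arm in replicates 2 and 3. For miR-335 and miR-666 the Wilson interval spanned an even split in every sham library, so no change beyond counting error was resolved.

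**Figure D4:**
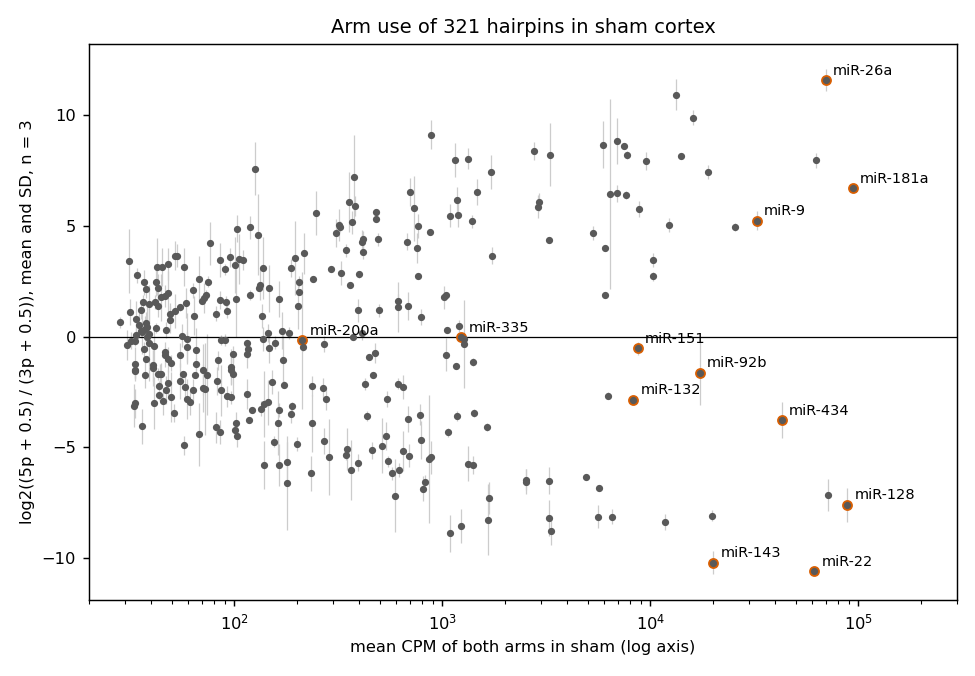
Mean log2 ratio of 5p to 3p counts, with 0.5 added to each, in the 3 sham libraries (SD bars) against the mean CPM of both arms (log axis) for 321 hairpins. Positive values are led by the 5p arm. The spread of ratios widens with abundance, and the labelled miR-26a and miR-22 mark its upper and lower ends.

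Leading and minor arms differed in their first base. Among 153 hairpins of at least 100 CPM with a single copy and both sequences known, the leading arm began with U in 79 (51.6%) and the minor arm in 29 (18.95%). The share was alike for hairpins led by the 5p arm (37 of 74) and by the 3p arm (42 of 79). Among the 96 hairpins below 100 CPM the shares were 45.8% and 40.6%, and U began 40.7% of all 1587 entries with a sequence. A first base U is the known preference of Argonaute's binding pocket, and the miRNAs printed above show it in most but not all cases, miR-181a-5p and miR-22-3p beginning with A.

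Weighted by counts, entries beginning with U took 66.2%, 69.9% and 67.8% of the sham counts that had a sequence (67.9% ± 1.84, SD, n = 3). A began 25.4%, C 5.03% and G 1.58%. Entries named 5p took 55.8%, 55.1% and 52.9% of the counts of 5p and 3p entries. These shares and the share of the leading 10 did not differ beyond the spread from the contralateral or the ipsilateral libraries. In 6 exact two-sided permutation tests of 3 against 12 libraries, p was 0.23 to 0.63 and the adjusted p 0.626 or more. The largest differences were a leading-10 share 1.54 percentage points higher than in ipsilateral cortex and a U share 1.47 points higher.

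Families were read by shared seed and by name. The 10 leading seed families took 66.2% ± 0.42 of the sham counts (SD, n = 3). Seed families hold only entries with a sequence, so miR-143-3p, miR-30d-5p and miR-30b-5p are in none of them, and the miR-30 seed family took 4.64% against 6.89% for miR-30 by name. The let-7 seed GAGGUAG was held by 10 entries, among them miR-98-5p and miR-1961. This family took 13.9%, 12.0% and 10.9%, the largest share by mean, although no let-7 entry was among the leading 4 by mean level. In replicate 3 the miR-128 family was just above it, at 10.99% against 10.94%. The members other than miR-1961 are shown because they differ by only a few bases, so reads can be shared between them.
let-7f-5p: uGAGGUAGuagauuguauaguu
let-7c-5p: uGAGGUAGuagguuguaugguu
let-7a-5p: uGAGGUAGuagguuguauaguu
let-7e-5p: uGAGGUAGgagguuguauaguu
let-7d-5p: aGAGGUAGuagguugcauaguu
let-7b-5p: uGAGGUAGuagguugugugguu
let-7g-5p: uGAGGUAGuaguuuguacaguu
let-7i-5p: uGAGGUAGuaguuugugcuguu
miR-98-5p: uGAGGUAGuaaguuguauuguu

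let-7f-5p alone held 51.1% of that family. It was followed by let-7c-5p (16091 ± 1187.6 CPM), let-7a-5p (13260 ± 1353), let-7i-5p (7672 ± 427), let-7g-5p (7470 ± 280) and let-7e-5p (6845 ± 1723), all SD with n = 3. let-7d-5p stood at 4803 ± 1048 CPM, let-7b-5p at 3119 ± 86.0 and miR-98-5p at 845 ± 70.9. The labels do not say how the authors assigned reads that match several members. Of the 69 entries of at least 1000 CPM with a sequence, 17 had another entry within 2 mismatches, among them let-7, miR-29a and miR-29c, miR-30a and miR-30e, miR-92a and miR-92b. Family sums are less exposed to that than single members. The let-7 seed family does not hold let-7j, which stood at a mean of 2279 CPM and is 1 mismatch from let-7i-5p. Reads shared with let-7j would therefore not stay within that sum.

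miR-181, with the seed ACAUUCA, took 13.0%, 10.2% and 9.01%, of which miR-181a-5p held 86.8%. It was followed by miR-128 with 8.82% ± 2.17, miR-127 with 7.08% ± 1.88, miR-26 with 7.02% ± 1.42 and miR-22 with 6.15% ± 0.63. miR-26a-5p held 99.3% of its family, against 51.1% for the leader of let-7. By name, all 12 entries of miR-30 took 6.89% ± 0.51, with miR-30a-5p, miR-30d-5p and miR-30c-5p as the leaders. miR-9 took 3.25% ± 0.24 and miR-125 2.44% ± 0.16.

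Smaller named families were miR-23, miR-27 and miR-24 (2.20% ± 0.18), of which miR-27b-3p held 89.6%, and miR-29 (1.34% ± 0.27), led by miR-29a-3p. miR-132 and miR-212 took 0.97% ± 0.10, miR-15 and miR-16 took 0.82% ± 0.24, and miR-221 and miR-222 took 0.71% ± 0.02. miR-124 took 0.49% ± 0.10 and miR-103 and miR-107 took 0.35% ± 0.07. The proliferation-linked miR-17/92 cluster and its 2 paralogous clusters together took 0.38% ± 0.04 over 28 entries, most of it miR-92a-3p. The rodent Sfmbt2 cluster took 0.02% over 49 entries, none of which reached 1000 CPM.

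**Figure D5:**
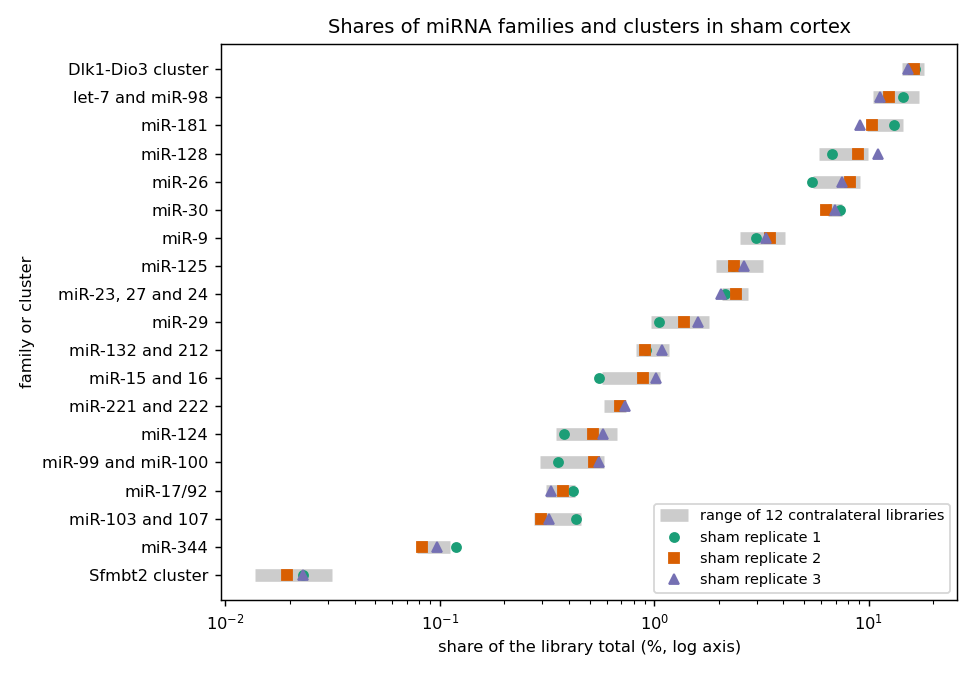
Share of the library total (%, log axis) of 19 named miRNA families and clusters, with 1 point per sham library and grey bars for the range of the 12 contralateral libraries. The Dlk1-Dio3 cluster and let-7 lead, and the sham points of miR-221 and miR-222 almost coincide, while those of miR-15 and miR-16 and of miR-128 are spread.

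The Dlk1-Dio3 cluster, an imprinted region of chromosome 12 that makes many miRNAs from the maternal chromosome, was the largest group by genome position. Its 105 entries took 16.5%, 16.2% and 15.3% of the sham counts (15.997% ± 0.62, SD, n = 3), a share steadier than that of its own leaders. miR-127-3p held 44.2% of it and miR-434-3p came second: replicate 1 had the highest miR-434-3p and the lowest miR-127-3p, and replicate 2 the reverse. Of the 105 entries, 11 stood at 1000 CPM or more, among them miR-411-5p (8673 CPM), miR-541-5p (5910), miR-410-3p (5588), miR-136-3p (5428), miR-300-3p (3256) and miR-381-3p (3210). The median entry of the cluster stood at 51.0 CPM.

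Within the region, 14 hairpins between chr12:109563692-109595388 held 12.3% of the counts and 36 hairpins between chr12:109709060-109747960 held 3.48%. Among 42 of its hairpins with enough counts, 27 were led by the 3p arm and 15 by the 5p arm, against 166 and 155 over all 321. Neighbours in a cluster were close in some cases and far apart in others. miR-30c-5p and miR-30e-5p on chromosome 4 stood 1.26 times apart. miR-30c-5p also comes from a gene on chromosome 1, so its level is not that of the chromosome 4 gene alone. miR-125a-5p and let-7e-5p, within 1 host gene on chromosome 17 (17830352 to 17830879), stood 2.04 times apart, and miR-191-5p and its neighbour miR-425 on chromosome 9 stood 32.2 times apart.

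The sham repertoire was then compared with the contralateral cortex of MCAO mice, using edgeR's quasi-likelihood test on all 27 libraries. Of 1470 entries tested, 4 were called at an adjusted p under 0.05 (0.272%), all higher in sham. They were miR-141-3p (log2 fold change 5.75 ± 0.82 SE, edgeR adjusted p = 3.07e-04), miR-182-5p (5.53 ± 1.03, edgeR adjusted p = 0.012), miR-200a-3p (4.24 ± 0.84) and miR-429-3p (3.57 ± 0.69). All 4 belong to the set that was high in replicate 2 alone. Without that library edgeR called 0 entries, with 39 at an unadjusted p under 0.05, and the log2 fold changes of miR-182-5p and miR-429-3p became -0.50 and -0.28.

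With replicate number as a block, edgeR called 0 entries, with 53 at an unadjusted p under 0.05 (adjusted p = 0.368 for miR-141-3p and 0.631 for the other 3). DESeq2 called 0, with 23 at an unadjusted p under 0.05, and its outlier filter gave no p for miR-141-3p, miR-182-5p or miR-200a-3p. None of the 20 leading entries was called (edgeR adjusted p = 0.999 for all). Of the arm ratios, limma called 0 of 414 hairpins, with 7 at an unadjusted p under 0.05. Of 1114 seed families, 3 were called (0.269%): that of miR-182-5p, that of miR-141-3p and miR-200a-3p, and that of miR-200b-3p, miR-200c-3p and miR-429-3p. None was called without replicate 2.

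Against the ipsilateral cortex, which shares the sham libraries with the comparison above, edgeR called 52 of 1470 entries (3.54%), 7 higher (0.476%) and 45 lower (3.06%) in sham. The higher set held miR-141-3p, miR-182-5p, miR-200a-3p, miR-200b-3p and miR-429-3p, which all changed sign without sham replicate 2 and were not called with replicate number as a block (edgeR adjusted p = 0.0869 to 0.181). The other 2 were miR-7228-5p at 97.8, 105.96 and 173 CPM against an ipsilateral median of 58.5 CPM (log2 fold change 1.24 ± 0.34, edgeR adjusted p = 0.032) and miR-693-3p at 24.9, 20.6 and 21.0 CPM against 12.6 CPM (0.81 ± 0.23, edgeR adjusted p = 0.040). Neither was called without sham replicate 2 (edgeR adjusted p = 0.208 for miR-7228-5p and 0.271 for miR-693-3p), and both were also lost without replicate 3, miR-693-3p without replicate 1 too.

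The 8 named entries lower in sham were at low levels there, between 5.15 and 101 CPM. miR-701-5p stood at 14.2, 16.2 and 23.1 CPM in sham and at 58.0 to 18060 CPM, median 282 CPM, in ipsilateral libraries (log2 fold change -4.92 ± 0.74, edgeR adjusted p = 8.16e-04). miR-7687-3p stood at 12.4, 8.83 and 8.38 CPM against a median of 210 CPM (-4.95 ± 0.87, edgeR adjusted p = 0.0029). miR-6968-5p stood at 10.7, 11.8 and 12.6 CPM against 170 CPM, and miR-1893 at 38.2, 16.9 and 31.4 CPM against 248 CPM. In all 8 named entries every sham library was below every ipsilateral one, which held for 12 of the 1470 entries tested (0.816%). miR-2861, miR-6538, miR-1934-5p and miR-3960 had log2 fold changes of -3.79 to -3.54. Without sham replicate 2 the direction of all 8 was the same, but 6 were no longer called (edgeR adjusted p = 0.0819 to 0.0926), leaving miR-701-5p (0.0404) and miR-6968-5p (0.0471).

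How many were called depended on which libraries entered. Without sham replicate 2 it was 2 of 1512, without sham replicate 3 it was 20, and in a fit of only sham and ipsilateral libraries it was 3. None of the leading 20 entries of sham was called against ipsilateral cortex, the smallest edgeR adjusted p being 0.279. Of 1114 seed families, 43 were called (3.86%), 5 higher (0.449%) and 38 lower (3.41%) in sham, and 2 without sham replicate 2.

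The arm ratio differed from ipsilateral cortex in 16 of 414 hairpins by limma (3.86%), 5 with a higher 5p to 3p ratio in sham (1.21%) and 11 with a lower one (2.66%). Without sham replicate 2 it was 5 hairpins and without replicate 3 it was 2. miR-701 had a log2 ratio of 1.58, 2.03 and 3.17 in sham against a median of 7.13 (-5.31 ± 0.92, limma adjusted p = 0.0016, and 0.0164 without sham replicate 2), and miR-7687 of 0, -0.94 and -1.28 against -4.60 (4.19 ± 0.67, limma adjusted p = 0.001, and 0.0111 without sham replicate 2). In both the arm that differs is the entry named above. miR-494 of the Dlk1-Dio3 cluster stood near balance in sham, at -0.67, 0.18 and -0.30, against a median of -1.75 (2.25 ± 0.64, limma adjusted p = 0.046), and was not called when any 1 of the 3 sham libraries was left out. miR-701, miR-7687 and miR-494 were not among the 321 hairpins above, having under 30 counts over both arms in at least 1 sham library. They were tested because the limit was a mean of 30 counts over all 27 libraries, to which the ipsilateral counts add. Their sham ratios are therefore poorly resolved. None of the leading hairpins was called: miR-181a differed by -0.06 ± 0.14 and miR-128 by -0.52 ± 0.31 (limma adjusted p = 0.94 and 0.53).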

How the data were processed

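Small RNA was sequenced from 27 cortex libraries, 3 for each of 9 groups (TruSeq small RNA kit, inserts of 15 to 35 bp, 69 bp single-end MiSeq reads). The authors deposited whole-number counts for 1842 mature miRNA entries in 27 columns, and 0 columns belong to another series. The submitters' processing notes name Novoalign and edgeR. The build, the annotation release, filters and the handling of reads with several matches were not found in the labels.

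Levels are CPM of the library total. Entries and seed families were tested with edgeR 4.0.16 (TMM, filterByExpr, robust quasi-likelihood, all 9 groups in 1 fit with 18 residual degrees of freedom), on 1470 entries after 372 low ones were removed. Arm ratios, log2 of 5p over 3p counts with 0.5 added, were tested with limma 3.58.1. The hairpins tested had a mean of at least 30 counts over both arms in the 27 libraries. P-values were adjusted by Benjamini-Hochberg over all features tested, with a threshold of 0.05. DESeq2 1.42.0, R 4.3.3, Python 3.11.15 and scipy 1.17.1 were also used. The count models were tested on simulated data. Wilson intervals (95%) and the limit of 3 counts (2.21 to 3.14 CPM) cover counting error only.

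The text names the 20 leading entries, the 10 leading seed families, the most and least one-sided hairpins, the 10 most and 5 least variable entries, the marker and family lists, and up to 8 calls per direction. Members and lists were chosen with earlier results of these data known. The main fits did not use the replicate number. It entered only as a block in an alternative, since the labels tie each set of replicates to 1 day of surgery without giving dates. Same-numbered libraries of different groups had a mean correlation of 0.23. Alternatives were the block, DESeq2, total-count scaling, no filter, a fit of only the groups compared, other arm minimums and pseudocounts, and leaving out each library.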

Additional observations from a re-analysis of the deposited data

How the results depend on the processing

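All 80 level values and 40 family shares computed under alternatives stayed within 1 SD of the 3 sham libraries. Values with 1 sham library left out could not fall outside that limit with n = 3, so they do not test stability. The values that could were the 20 levels under TMM scaling and the shares of the 10 leading seed families by bases 2 to 7. With the replicate number as a block, sham against contralateral cortex gave 0 entries, 1 hairpin and 0 seed families (4, 0 and 3 in the fit without it), and sham against ipsilateral cortex gave 49, 20 and 46 (52, 16 and 43). With only the groups compared, the contralateral comparison gave 0 entries and 0 families, and the ipsilateral one 3 entries, 6 hairpins and 3 families. DESeq2 called 0 and 80 entries. Without the filter 1 contralateral call was left. Total-count scaling left 30 entries and 19 families called against ipsilateral cortex, and moved the median log2 fold change over all entries from 0.03 to 0.12 (contralateral) and from 0.02 to -0.12 (ipsilateral). For arm ratios, a pseudocount of 5 gave 27 hairpins and a minimum of 100 counts gave 8. The 5p arm led in 48.3% of sham hairpins, in 49.5% at a minimum of 100 counts (94 against 96 hairpins) and in 48.0% at 10. The cause of these changes was not tested.

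When 1 library was left out, calls against contralateral cortex ranged from 0 to 8 entries and 0 to 5 families, with 0 hairpins throughout, and against ipsilateral cortex from 2 to 80 entries, 2 to 28 hairpins and 2 to 70 families. The lowest entry and family counts came without sham replicate 2, the lowest hairpin count without sham replicate 3, and the highest counts against ipsilateral cortex without the 12 h ipsilateral replicate 2. Sham fold changes (log2) against contralateral cortex ranged from -0.50 to 6.13 for miR-182-5p and from -0.28 to 4.16 for miR-429-3p. Against ipsilateral cortex they ranged from -0.52 to 5.26 (miR-141-3p), -1.87 to 5.51 (miR-182-5p), -0.59 to 4.79 (miR-200a-3p), -0.54 to 4.17 (miR-429-3p) and -0.071 to 2.81 (miR-200b-3p). The lowest values all came without sham replicate 2, the highest without sham replicate 1 (contralateral) or without the 6 h ipsilateral replicate 3. Seed families ranged from -0.50 to 6.13 (UUGGCAA) and -0.10 to 3.77 (AAUACUG) against contralateral cortex, and from -1.87 to 5.51 (UUGGCAA), -0.57 to 5.08 (AACACUG) and -0.34 to 3.76 (AAUACUG) against ipsilateral cortex.

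The share of counts in entries that begin with U was 0.40 percentage points higher in sham than in contralateral cortex, -0.17 with miR-181a-5p left out, and -0.56 to 1.28 when 1 sham library was left out. An entry at the median of 8.09 to 12.4 CPM rests on 11 to 14 counts, so differences at that level are poorly resolved.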
